A study of Mus musculus with 39 samples.

Results

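CpGs methylated de novo upon retinoic acid treatment were taken from a deposited table of single CpGs in mouse embryonic stem cells. A member had a total methylation level of at most 10% in naive wild-type (WT) cells and of at least 50% in WT cells treated with retinoic acid (RA). The rule found 1885 of the 330387 CpGs in the table. The members were thus chosen by their total level in naive and RA-treated WT cells, so these WT totals are a description, and nothing below is tested or supported with them.

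The libraries were made by reduced representation bisulfite sequencing (RRBS) or by its oxidative form (oxRRBS), from DNA cut with MspI. In RA-treated cells, RRBS covered 4 p53-null and 5 WT libraries, and oxRRBS covered 4 p53-null and 4 WT libraries. In naive cells, each assay covered 3 p53-null and 5 WT libraries. Liver of male mice aged 16 weeks gave 3 p53-null and 3 WT RRBS libraries.

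RA-treated cells had received 1 uM RA for 4 days, and naive cells were kept in medium with LIF and 2 kinase inhibitors (2i). All stem cells came from morulas of embryonic day 2.5, from matings of mice heterozygous for the 129s-Trp53tm2Tyj/J allele, and were raised on irradiated mouse embryonic fibroblast feeders. Feeder depletion is stated for the differentiation experiments. The labels call the cells and mice p53-null, and methylation levels give no check of that. They do not say how many lines or embryos the libraries of a group represent.

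Each group is a single pooled column in the deposited tables. There are no values per library, the depth behind each level is unknown, and no difference between groups was tested. The spread given below is over chromosomes of pooled DNA, which says nothing of the spread between libraries. Positions are those of the mouse build mm9. No mm9 sequence or gene annotation was used, so genes, exons and promoters are not named.

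Cytosine methylation is placed on unmethylated DNA by the de novo methyltransferases DNMT3A and DNMT3B and copied at replication by DNMT1. Naive stem cells in 2i have a genome low in methylation, which is regained when they leave that state. TET dioxygenases oxidise 5-methylcytosine (5mC) to 5-hydroxymethylcytosine (5hmC). Bisulfite sequencing reads both marks as methylated, and the oxidative form reads only 5mC, so that their difference estimates 5hmC. CpG islands, stretches dense in CpGs, are mostly kept unmethylated. The p53 protein, encoded by Trp53, is a transcription factor of the stress response.

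The members had intermediate levels in p53-null cells in both states. They averaged 46.3% after RA and 19.9% before it in p53-null cells, which are 26.4 percentage points apart. The WT means, held apart by the rule, were 58.7% in RA-treated and 6.29% in naive cells, 52.4 points apart. The p53-null difference was 50.4% of the WT one, against 38.4% over all CpGs. The rule sets a minimum to the WT difference of each member, so nothing is read from this ratio. In the other 55995 CpGs at 50% or more in RA-treated WT cells, p53-null levels averaged 62.7% after RA and 56.4% in naive cells. The ratio was 26.4% there.

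In RA-treated p53-null cells the members ranged between 10% and 91%, with a median of 46% and the middle 50% between 38% and 55%. No member was at 0. A level of 50% or more was reached by 765 of the 1885 members (40.6%), against 15.5% of all CpGs. The same level was reached by 82.8% of the other CpGs high in RA-treated WT cells, and by 0.482% of all CpGs low in naive WT cells. Members therefore lay between those sets: 95 of them (5.04%) were under 25% in RA-treated p53-null cells, against 75.4% of all CpGs.

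In naive p53-null cells the members ranged between 0% and 80%, with a median of 18% and the middle 50% between 10% and 27%. Of the 1885, 1395 (74.0%) were over 10% and 490 (25.99%) were at 10% or less, against 25.3% and 74.7% of all CpGs. Of all CpGs low in naive WT cells, 3.80% were over 10%. A level of 25% or more was found at 570 members (30.2%), against 20.3% of all CpGs. Few members were largely methylated before RA: 61 (3.24%) stood at 50% or more, against 11.9% of all CpGs.

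Within p53-null cells, the RA-treated level exceeded the naive level by 25 points or more at 1079 members (57.2%), against 4.29% of all CpGs. The difference reached 40 points at 379 members (20.1%), against 0.814% of all CpGs. At 111 members (5.89%) the RA-treated level was below the naive one, against 17.7% of all CpGs. Both limits of the rule were met in p53-null cells at 157 members (8.33%), against 0.164% of all CpGs.

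**Figure D1:**
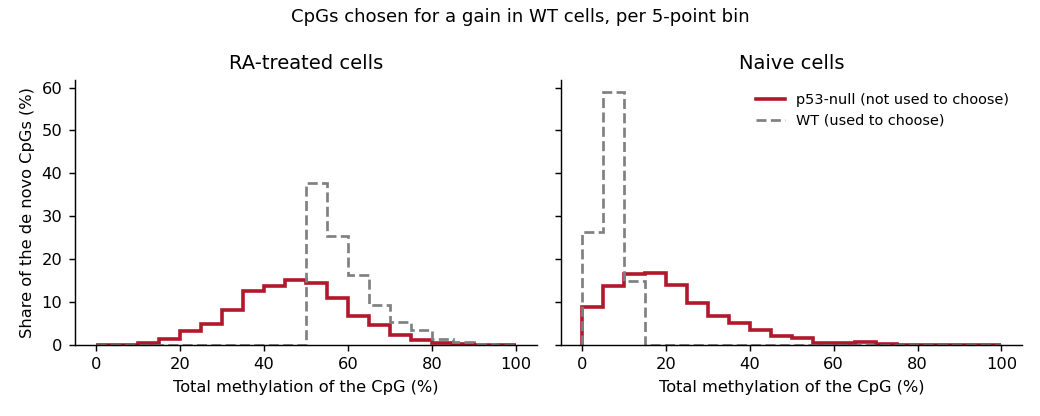
Total methylation level (percent, horizontal axis) of the 1885 members in RA-treated cells (left) and naive cells (right), as a share of the members per bin (vertical axis), for p53-null and WT cells. The p53-null medians were 46% after RA and 18% in naive cells. The WT values are bounded by the rule, at 50% or more after RA and 10% or less in naive cells.

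Set beside WT, the p53-null mean was 12.3 points lower in RA-treated cells and 13.6 points higher in naive cells. In RA-treated cells p53-null was lower at 1559 members (82.7%) and higher at 276 (14.6%), against 29.8% and 23.4% of all CpGs. In naive cells p53-null was higher at 1652 (87.6%) and lower at 152 (8.06%), against 32.5% and 16.8% of all CpGs. The rule lifts the WT value after RA and holds it down in naive cells, so these counts are printed with their background and nothing is read from them. On the 20 chromosomes with at least 20 members, the mean difference lay between -15.2 and -9.62 points after RA and between 9.80 and 16.9 points in naive cells. The p53-null difference between states lay between 21.4 and 29.5 points over these chromosomes (mean 26.4 ± 2.13, SD over 20 chromosomes).

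The same limits of 10% and 50%, applied to the p53-null columns, found 542 CpGs, of which 157 were also members, 29.0% of that list. Those 542 averaged 57.4% in RA-treated p53-null and 51.9% in RA-treated WT cells. In naive cells they averaged 6.18% in p53-null and 11.99% in WT. These values are bounded by the p53-null columns as those of the members are by WT, the groups pool unequal numbers of libraries, and the lists are not set against each other.

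The limits did not mark a step. The 580 members at 9 to 10% in naive WT cells averaged 47.6% in RA-treated and 23.9% in naive p53-null cells, and the 633 CpGs just above that limit, at 11 to 12%, averaged 47.96% and 25.6%. The 336 members at 50 to 51% in RA-treated WT cells averaged 41.8% in RA-treated and 17.1% in naive p53-null cells, and the 262 CpGs at 48 to 49% averaged 38.6% and 16.2%.

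The p53-null levels were graded with the WT levels among the members. In naive p53-null cells, members at 0 to 2% in naive WT averaged 14.2%, those at 3 to 5% averaged 16.7%, those at 6 to 8% averaged 20.7% and those at 9 to 10% averaged 23.9%. In RA-treated p53-null cells, the mean was 43.5% for the 1191 members at 50 to 59% in RA-treated WT, 49.8% for the 485 at 60 to 69%, 54.0% for the 167 at 70 to 79% and 57.1% for the 42 at 80% or more. The p53-null difference between states was 25.2, 28.3, 29.3 and 29.1 points over these RA classes, and 29.1, 29.7, 25.6 and 23.8 points over the naive ones. The 42 members with the highest WT level after RA had the highest p53-null naive mean of the 4 RA classes, 28%, as well as the highest RA-treated mean.

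The members were split into 4 classes by applying the limits of 10% and 50% to their p53-null levels, which were spread without a gap. The most frequent, 787 members (41.8%), were over 10% in naive and under 50% in RA-treated p53-null cells, with means of 38.8% after RA and 23.9% before. Another 608 (32.3%) were over 10% in naive cells and at 50% or more after RA, with means of 58.8% and 26.3%. The 333 members (17.7%) that were low in naive cells and under 50% after RA averaged 35.6% and 5.50%. The last class holds the 157 that met both limits, with means of 58.3% and 6.10%. Of all CpGs, 25.3% were over 10% in naive p53-null cells, 15.5% were at 50% or more after RA and 0.164% met both limits. Shares of all CpGs in the other classes are not given, so nothing is read from the class counts.

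Single members show how far genotypes could part at a site chosen for its WT values. The widest WT difference was on chromosome 15 (mm9 100964608 to 100964609), with 52% in RA-treated and 10% in naive p53-null cells, against 94% and 5% in WT. On chromosome 4 (136270010 to 136270011) the p53-null levels were 69% and 22%, against 93% and 5% in WT. On chromosome 8 (47582443 to 47582444) they were 57% and 50%, against 86% and 0% in WT, so that nearly all of the p53-null level was already there in naive cells. Over the 5 members with the widest WT difference, p53-null cells had 52 to 69% after RA and 5 to 50% before.

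The lowest p53-null level after RA, 10%, was on chromosome 11 (101843393 to 101843394), with 2% in naive p53-null cells, against 55% and 10% in WT. The 5 lowest members had 10 to 14% in RA-treated p53-null cells, against 50 to 57% in WT. The highest, 91%, was on chromosome 1 (143528293 to 143528294), with 50% in naive p53-null cells, against 60% and 0% in WT. The highest naive p53-null level was on chromosome 10 (67725924 to 67725925), where p53-null cells had 80% in both states, against 55% after RA and 10% before in WT. These extremes are single positions of unknown depth. The chromosome 1 and chromosome 10 sites were each the only measured CpG of their 200 bp window. A table of such windows, described below, has a first set of columns matching naive levels more often and a second matching RA-treated ones. Its p53-null totals were 56.99% and 46.6% in these sets at the chromosome 1 site. At the chromosome 10 site they were 48.98% and 52%. The levels of 91% and 80% were not reached there, and the cause was not tested.

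Members lay where measured CpGs were sparse. The table was split into windows (tiles) of 200 bp, and the number of measured CpGs in a tile was used as a lower bound of local CpG density. Members averaged 1.95 measured CpGs per tile, against 6.05 over all CpGs. A member was alone in its tile at 899 of 1885 sites (47.7%), against 19.2% of all CpGs and 7.33% of CpGs low in naive WT cells. No member lay in a tile with 9 or more measured CpGs, which hold 27.4% of all CpGs, and the densest tile of a member had 8. At 825 members (43.8%) no other measured CpG lay within 100 bp, against 17.1% of all CpGs.

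Members were nevertheless less sparse than the other CpGs high in RA-treated WT cells, of which 61.5% were alone in their tile and 58.7% had no measured CpG within 100 bp. Among CpGs low in naive WT cells, the share that were members was 4.85% in tiles with 1 measured CpG, 2.56% with 2, 1.06% with 3, 0.535% with 4 and 0.199% with 5. Among CpGs high in RA-treated WT cells it ran the other way at low density, at 2.54%, 3.86%, 4.32%, 6.19% and 6.25% in tiles with 1 to 5 CpGs. A CpG low in naive cells was thus more often a member where it stood alone, and a CpG high after RA was more often a member where it had company.

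**Figure D2:**
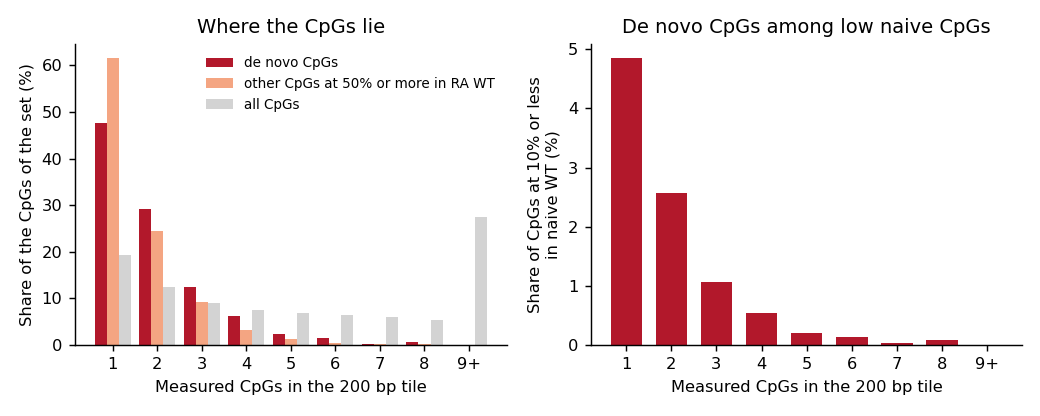
Share (percent, vertical axis) of members, of other CpGs high in RA-treated WT cells and of all CpGs by the number of measured CpGs in their 200 bp tile (left), and the percentage of CpGs low in naive WT cells that are members at each number (right). Among members 47.7% were alone in their tile, and none shared a tile with 8 or more other CpGs.

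Members in denser tiles had somewhat lower p53-null levels in both states. In naive p53-null cells, members averaged 21.6% in tiles with 1 measured CpG, 19.01% with 2, 18.1% with 3 and 17.1% with 4 or more. In RA-treated p53-null cells, the same classes averaged 46.9%, 46.9%, 45.6% and 43.2%.

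Most members had no other member within 1000 bp. Joined with gaps of at most 1000 bp, they formed 1683 runs, of which 1508 held 1 member, 153 held 2 and 22 held 3 or more. Another member lay within 1000 bp of 377 members (20%), within 100 bp of 253 (13.4%) and within 100000 bp of 824 (43.7%). Of the 1060 members with any measured CpG within 100 bp, 23.9% had another member there. All 1885 members averaged 1.06 other measured CpGs within that distance, while members made up only 0.394 to 0.730% of the CpGs of a chromosome. Members thus lay near each other more often than that share, and the part of density in this was not tested. Of the 861 tiles with a member and at least 2 measured CpGs, 51 consisted of members only.

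The CpGs around the members had similar but weaker patterns. The 202 non-members within 10 bp of a member averaged 43.0% in RA-treated and 19.97% in naive p53-null cells, against 47.7% and 13.6% in WT. The 590 at 51 to 100 bp averaged 38.3% and 19.9% in p53-null cells, against 41.9% and 13.9% in WT. At 201 to 1000 bp the 1193 non-members averaged 26.7% and 16.0%, against 29.1% and 12.2% in WT, and 36.8% of them were at 10% or less in RA-treated WT cells. At 1001 to 10000 bp the 10110 non-members averaged 14.7% and 11.3%, against 15.6% and 8.66% in WT, close to the means of all CpGs in RA-treated cells, 15.1% in p53-null and 16.3% in WT. A naive WT level of 20% or less with 40% or more after RA was found at 49.01% of the non-members within 10 bp, 30.7% of those at 51 to 100 bp and 3.78% of those at 1001 to 10000 bp, against 3.63% of all CpGs. Non-members beside a member often just missed a limit, and at short distances can share MspI fragments with it.

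**Figure D3:**
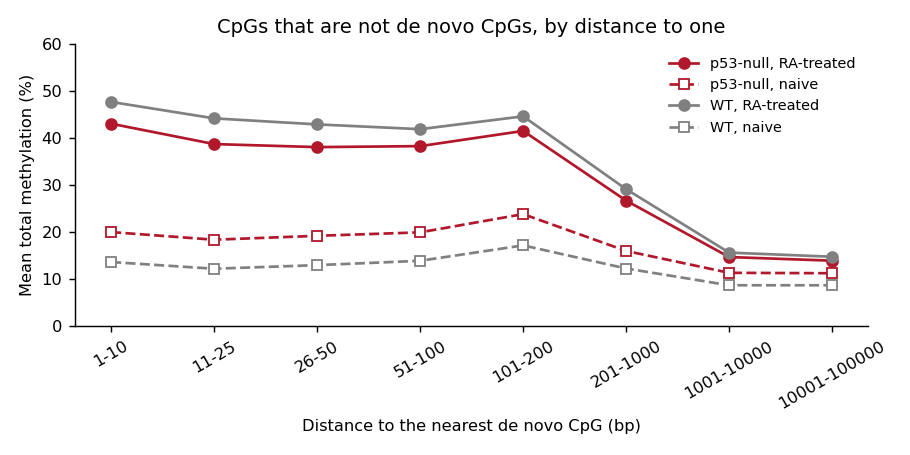
Mean total methylation level (percent) of CpGs that are not members by their distance in bp from the nearest member (classes from 1 to 10 bp up to 10001 to 100000 bp), in RA-treated and naive p53-null and WT cells. The RA-treated and naive means lay far apart within 200 bp of a member, and were at 14.7% and 11.3% in p53-null cells at 1001 to 10000 bp.

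The run with most members lay on chromosome 9 (mm9 96064281 to 96064544), where 7 of the 11 CpGs measured in 264 bp were members. After RA, these 7 had 21, 31, 38, 38, 43, 36 and 17% in p53-null cells, against 50, 56, 59, 64, 50, 70 and 57% in WT. In naive cells they had 17, 17, 26, 30, 22, 8 and 8% in p53-null, against 0, 0, 3, 9, 6, 6 and 3% in WT. At every member of the run, the p53-null level was lower than WT after RA and higher than WT before. The rule bounds these WT levels and the run was named for its number of members, so nothing is read from this. The other 4 CpGs of the run had 35 to 46% in RA-treated WT cells, under the limit.

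On the X chromosome (151740588 to 151740646) all 4 CpGs measured in 59 bp were members, with 38, 35, 43 and 32% in RA-treated and 4, 2, 8 and 4% in naive p53-null cells. The WT levels were 50, 50, 53 and 53% after RA and 2, 3, 4 and 1% before. Here naive p53-null cells stayed under 10% at each CpG. On chromosome 10 (7338939 to 7339200) the 3 members had 79, 71 and 47% in RA-treated p53-null cells, against 65, 65 and 50% in WT, so that p53-null was the higher at 2 of 3. The runs thus differed among themselves in both p53-null states.

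The single-CpG table has a further column per group, marked Hx, which is read here as the oxRRBS level. In tiles with 1 measured CpG, at 10 to 90%, the naive WT Hx level lay within 1 point of the first WT 5mC column of the tile table in 18.9% of tiles, and of the matching 5hmC column in 2.76%. The Hx level did not exceed the total at any of the 330387 CpGs in any of the 4 groups, so total minus Hx cannot be negative in this table. It measures 5hmC with that bound, and the bound holds naive WT Hx of the members at 10% or less.

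By this bounded measure, most of the total level of members in naive p53-null cells was not read by oxRRBS. In the member tiles described below, which lack that bound and mix in other CpGs, 5hmC was a smaller part, 46.9% of the first-set p53-null total. The Hx level of members averaged 32.3% in RA-treated and 5.91% in naive p53-null cells, against 37.1% and 1.56% in WT. Total minus Hx averaged 14.1 points in RA-treated p53-null cells, 30.4% of the total, and 14.0 points in naive p53-null cells, 70.4% of the total. The difference between the states in p53-null cells was therefore in Hx, 32.3% against 5.91%, while total minus Hx had nearly the same mean in both states. In the other CpGs high in RA-treated WT cells, total minus Hx was 20.3% of the total in RA-treated and 37.1% in naive p53-null cells.

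This share depends on the level, so CpGs of one p53-null level were compared, a choice made after values were seen. Among CpGs at 10 to 27% in naive p53-null cells, total minus Hx was 71.6% of the total at 1014 members and 67.0% at 20228 other CpGs. The members of that range averaged 46.4% in RA-treated p53-null cells, against 31.5% at the other CpGs. Among CpGs at 38 to 55% in RA-treated p53-null cells, 998 members averaged 19.99% in naive p53-null cells, against 40.8% at 25114 others. In that range, total minus Hx averaged 13.6 points at members and 11.98 points at the others in RA-treated p53-null cells. At one p53-null level in a state, the members thus lay higher after RA, or lower before it, than the other CpGs. The rule took members as low in naive and high in RA-treated WT cells. That choice favours this direction where the genotypes have like levels, so nothing is read from it.

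The tile table gives total, 5mC and 5hmC for p53-null and WT in 2 sets of columns, whose headings name no cell state. In tiles with 1 measured CpG at 10 to 90%, the WT total of the first set lay within 1 point of the naive WT CpG level in 19.8% of tiles and of the RA-treated one in 1.81%. The WT total of the second set lay within 1 point of the RA-treated level in 15.2% and of the naive one in 2.83%. The sets are called first and second here. Of the 1760 tiles with a member, 1661 are in the tile table, 1446 with values in the first set and 1388 in the second. A tile level mixes members with the other CpGs of the tile, and 5hmC can be negative in this table, as it was in 32.4% of all p53-null and 27.8% of all WT tiles of the first set.

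In the first set the member tiles had a total of 19.9% in p53-null and 10.9% in WT cells. Their 5mC averaged 10.6% in p53-null and 5.87% in WT, and their 5hmC 9.31 points in p53-null and 5.08 points in WT, which is 46.9% and 46.4% of the total. Both marks were thus higher in p53-null, in nearly the same proportion. The 5hmC difference between p53-null and WT was 4.24 points in member tiles, against -0.195 points in the 39504 tiles holding another CpG high in RA-treated WT cells and no member. In those tiles, 5hmC was 13.2 points in p53-null and 13.4 points in WT, or 24.9% and 32.1% of the total. The 5mC difference was 4.69 points in member tiles and larger, 11.4 points, in those other tiles. The WT total of the first set matched the naive WT level more often, and the rule holds that level down at members. The sign of the total and 5hmC differences of member tiles is therefore not read as a genotype effect in this set.

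In the second set the member tiles had a total of 41.5% in p53-null and 48.6% in WT cells. Their 5mC averaged 34.0% in p53-null and 38.5% in WT, and their 5hmC 7.44 points in p53-null and 10.1 points in WT, which is 17.9% and 20.8% of the total. Both marks were lower in p53-null here. The 5hmC difference was -2.67 points, against -0.0601 points in the other high tiles, whose 5hmC was 7.70 points in p53-null and 7.76 points in WT. The 5mC difference was -4.41 points in member tiles and -5.09 points in the other high tiles, so it was not particular to member tiles. The WT total of these tiles draws on the reads that chose the members, so the sign of the total and 5hmC differences is not read as a genotype effect.

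**Figure D4:**
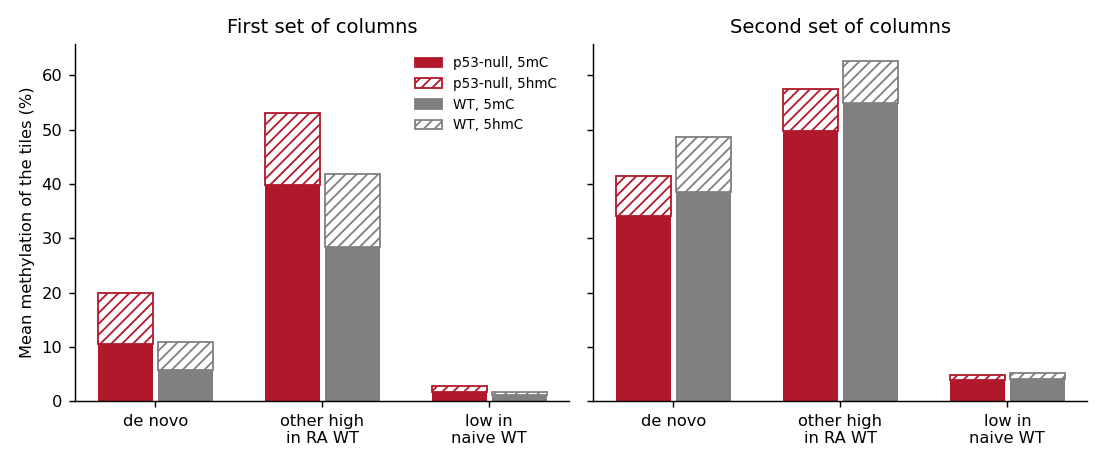
Mean 5mC level and, stacked on it, mean 5hmC (percent of cytosines, vertical axis) in tiles with a member, in tiles with other CpGs high in RA-treated WT cells and in tiles with only CpGs low in naive WT cells, for p53-null and WT, in the first and second set of columns. The bars reach the mean total, which in member tiles of the first set was 19.9% in p53-null and 10.9% in WT, and in those of the second set 41.5% in p53-null and 48.6% in WT.

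At one p53-null total, 5hmC was a larger part of the member tiles. Among tiles at 10.7 to 26.8% in p53-null in the first set, 5hmC was 9.11 points in 722 member tiles (51.2% of the total), against 7.34 points in 10025 other tiles (39.6%). Among tiles at 32.7 to 50.2% in p53-null in the second set, it was 7.34 points in 694 member tiles (17.6%), against 6.21 points in 16278 others (14.7%). Member tiles of these ranges had more measured CpGs, 1.93 against 1.53 in the first set and 1.96 against 1.38 in the second, and the part of density in this was not tested.

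Tiles count as called where the authors' deposited table gives a q-value under 0.05 and the genotypes lie 10 points or more apart. By the authors' deposited table, p53-null total of the first set was higher in 460 of 1446 member tiles (31.8%), against 28.1% of all tiles, and lower in 2, against 0.786%. For 5mC in that set, the authors' deposited table had p53-null higher in 298 member tiles (20.6%), against 36.6% of all tiles, and lower in 40, against 6.03%. Over tiles with a measured CpG, the only ones that can hold a member, the authors' deposited table had p53-null higher in 21.1% for total and 23.7% for 5mC. In tiles with other CpGs high in RA-treated WT cells and no member, the authors' deposited table had p53-null higher in 41.6% for total and 47.99% for 5mC. The member share for 5mC was below that of these tiles and of all tiles, and near that of tiles with a measured CpG. The first-set WT total matched the naive WT level more often, and the rule holds that level down at members. Nothing is therefore read from the member counts for total in this set.

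By the authors' deposited table, p53-null total of the second set was lower in 161 of 1388 member tiles (11.6%), against 3.65% of all tiles, and higher in 3, against 0.481%. For 5mC in that set, the authors' deposited table had p53-null lower in 251 member tiles (18.1%), against 12.3%, and higher in 47 (3.39%), against 2.81%. Over tiles with a measured CpG, the authors' deposited table had p53-null lower in 3.32% for total and 8.54% for 5mC of this set. In tiles with other CpGs high in RA-treated WT cells and no member, p53-null 5mC was lower in 16.5% and higher in 2.96%. The member shares for 5mC were thus near those of these tiles. For total, the WT columns behind these calls share reads with the rule, and nothing is read from those counts. The 5mC columns come from oxRRBS libraries that did not enter the rule, but are of the same groups of cells.

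Among the tiles with most members, the one on chromosome 9 (96064401 to 96064600) held 5 members of 8 measured CpGs and is part of the run with most members. Its first-set total was 14.6% in p53-null and 4.68% in WT, with 5mC of 1.19% in p53-null and 0% in WT. Nearly all of its total was thus 5hmC in that set. The tile on chromosome 14 (34003201 to 34003400), with 3 members of 4 measured CpGs, had a second-set total of 46.5% in p53-null and 61.6% in WT, with 5mC of 41.2% in p53-null and 40.7% in WT. There the genotypes lay further apart in 5hmC, at 5.30 points in p53-null and 20.9 points in WT, than in 5mC. The rule lifts the WT total there, and WT 5hmC with it, so nothing is read from this gap. First-set 5hmC of this tile was below 0, at -3.97 points in p53-null and -0.304 points in WT.

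Liver levels came from columns headed only with the genotype, taken as liver because the liver samples are the only ones whose labels name the tile table. The tiles of the members were largely methylated in them. They averaged 75.4% in 1328 tiles of p53-null liver and 75.8% in 1456 tiles of WT liver, with medians of 84.8% in p53-null and 85.7% in WT. A level of 80% or more was found in 802 member tiles (60.4%) of p53-null and 886 (60.9%) of WT liver, against 50.9% of all p53-null and 52% of all WT tiles. A level under 20% was found in 73 (5.50%) of p53-null and 79 (5.43%) of WT tiles, against 25% and 23.5% of all tiles. Tiles with a measured CpG were less methylated than all tiles, with 33.8% of them at 80% or more in p53-null and 34.7% in WT liver, and 45.5% and 44.2% under 20%.

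The member tiles thus resembled tiles of other CpGs high in RA-treated WT cells, which averaged 81.8% in p53-null and 82.1% in WT liver. Tiles with only CpGs low in naive WT cells and no member averaged 11.9% in p53-null and 12.3% in WT liver. At first-set p53-null totals of 10.7 to 26.8%, member tiles averaged 75.2% in p53-null liver, against 65.5% in other tiles of that range. At second-set p53-null totals of 32.7 to 50.2%, the means in p53-null liver were closer, at 77.3% in member tiles and 74.8% in other tiles.

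In the 1316 member tiles measured in both livers, the mean difference of p53-null minus WT was -0.533 points. Levels in p53-null liver were 10 points or more higher in 179 of them (13.6%), against 13.6% of all tiles, and 10 points or more lower in 235 (17.9%), against 14.6%. Over tiles with a measured CpG, the shares were 9.07% higher and 9.59% lower, and over the other tiles high in RA-treated WT cells 13.8% and 14.2%. Member tiles with 1, 2, 3 and 4 or more measured CpGs gave member means of 73.6, 76.6, 78.5 and 81.5% in p53-null liver and 73.9, 77.0, 78.2 and 82.4% in WT liver, so the denser members were the more methylated ones in liver.

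**Figure D5:**
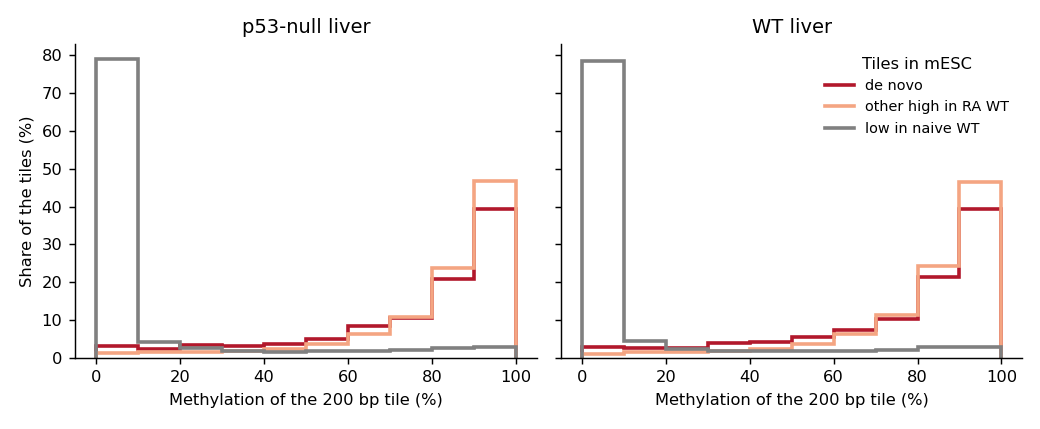
Distribution of the methylation level (percent, horizontal axis) of tiles in the columns taken as p53-null liver (left) and WT liver (right), as a share of tiles (vertical axis), for tiles with a member, other tiles with CpGs high in RA-treated WT cells and tiles with only CpGs low in naive WT cells. Member tiles had medians of 84.8% in p53-null and 85.7% in WT liver.

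Members were found on every autosome and on the X chromosome, with 20 on X and 141 on chromosome 5, and none among the 4 measured CpGs of the Y chromosome. They made up 0.394 to 0.730% of the CpGs of a chromosome. Chromosome 11, which carries Trp53, had 129 members, with a p53-null minus WT difference of -11.8 points after RA and 14.5 points in naive cells, within the range of the other chromosomes.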

How the data were processed

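Methylation was measured by RRBS and oxRRBS in stem cells and by RRBS in liver. The authors deposited whole-number percent levels per CpG in a single-CpG table. The tile table, per the file headers, holds the methylated fraction of 200 bp tiles for each group and the authors' differences, as WT minus p53, with q-values. Both pool the libraries of a group. Fractions were multiplied to percent here, and differences turned to p53-null minus WT. Trim Galore, BSMAP and methylKit, and the build mm9, are named in the submitters' processing notes with no version. No source used here states the coverage limits or how libraries were pooled.

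Members were found by the rule with Python 3.11.15, numpy 2.4.6 and pandas 2.3.3, and plotted with matplotlib 3.10.9. A CpG was assigned to the tile holding its first base. The tests over libraries planned for the group differences were not run, since there are no values per library. 2 further tile columns were not used. Members and lists were chosen with earlier results of these data known. Named CpGs were the 5 members with the widest WT difference, the 5 lowest and 5 highest p53-null levels after RA, the 5 highest naive p53-null levels, the 5 runs and the 5 tiles with most members, from which examples are printed. On simulated data, 200 of 200 planted members were found among 330387 CpGs. Alternatives changed the limits, chromosomes, weights, tiles and distances.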

Additional observations from a re-analysis of the deposited data

How the results depend on the processing

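Of 180 values under an alternative, 129 moved by less than 1 SD over 20 chromosomes (or, for the count of members, by less than 1.5 times), 51 moved further and 0 changed direction. Levels and shares cannot change sign, and the rule favours the sign of the genotype differences, so nothing is read from the lack of reversals. The cause of each move was not tested. With at most 5% in naive WT, 673 CpGs were found, the p53-null difference between states was 29.5 points and 13.1% had another member within 1000 bp. Their first-set tiles had a total of 15.6% and 5mC of 7.32% in p53-null, against 7.91%, 4.00% and 5hmC of 3.91 points in WT, and second-set 5mC was 31.3% in p53-null. With at least 60% after RA in WT, 694 were found, p53-null minus WT was -16.0 points after RA and 16.1 points in naive cells, and the p53-null difference between states was 28.6 points. Of these, 55.9% reached 50% in RA-treated p53-null cells, 4.90% met the same limits in p53-null and 12.4% had another member within 1000 bp. Second-set total and 5mC were 44.9% and 37.3% in p53-null, against 53.6% and 42.1% in WT. With at least 40%, 3938 were found, with -9.78 points after RA, 11.6 points in naive cells and 23.5 points between p53-null states. Here 25.9% reached 50%, 13.7% met the same limits and 27.7% had another member within 1000 bp, and second-set total and 5mC were 37.4% and 30.4% in p53-null, against 43.5% and 34.4% in WT. With at most 20% in naive WT, 6726 were found, with -10.5 points after RA and 21.2 points between p53-null states; 50.1% reached 50%, 12.9% met the same limits and 28.1% had another member within 1000 bp. First-set total, 5mC and 5hmC were 27.8%, 16.6% and 11.2 points in p53-null, against 17.3%, 9.69% and 7.62 points in WT, and second-set total and 5mC were 45.0% and 37.4% in p53-null, against 51.8% and 42.4% in WT. Counting each tile once left 14.3% with another within 1000 bp. That share was 13.4% within 100 bp and 24.7% within 10000 bp. For members alone in their tile, p53-null minus WT was 15.3 points in naive cells. Leaving out X or chromosome 11 moved no value by more than that SD. No paired analysis was possible because no column carries a replicate number, each group being 1 pooled column, and leaving out each replicate was not run for that reason. The depth behind a level is unknown, so counting error cannot be given. Levels of single CpGs are the most exposed to this.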

Other observations

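Some members had less methylation after RA than before in p53-null cells. These 111 members averaged 35.3% in RA-treated and 44.8% in naive p53-null cells, against 59.7% and 6.77% in WT. They were alone in their tile in 64.0% of cases, against 47.7% of all members. At 41 of them the p53-null level was lower by 10 points or more, with means of 32.4% after RA and 50.5% before, and 70.7% were alone in their tile. An example on chromosome 8 (mm9 109094536 to 109094537) had 38% in RA-treated and 75% in naive p53-null cells, against 82% and 10% in WT. Their choice by the p53-null values makes these a description.

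The 157 members that met both limits in both genotypes had the highest liver means of the 4 p53-null classes, 80.7% in p53-null and 81.5% in WT liver. The class over 10% in naive and at 50% or more in RA-treated p53-null cells averaged 78.4% in p53-null and 77.7% in WT liver. Of the classes under 50% after RA, the one low in naive p53-null cells averaged 74.2% and 75.6%, and the one over 10% averaged 74.3% and 74.7%. The liver mean of all member tiles had an SD over 20 chromosomes of 4.26 points in p53-null and 4.64 points in WT. Nothing is therefore read from the order of the classes.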
